A study of Mus musculus with 6 samples.

Results

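The Slit, Robo and srGAP genes of the mouse were followed in immortalized podocytes. They comprise the Robo receptors (Robo1, Robo2, Robo3 and Robo4), their secreted Slit ligands (Slit1, Slit2 and Slit3) and the srGAP proteins that bind the inside of the receptor (Srgap1, Srgap2 and Srgap3), which are 10 of the 57132 genes in the count table. These families were selected on the fall of Robo1 in Alport syndrome (AS) podocytes, so the AS over WT values of the 10 genes are given as a description, without p-values. Where one of them is said to be called or not, this states on which side of the threshold it lay in the fit across all genes, and nothing is read from it. Of the 10 genes, 8 had enough counts for the fit across all genes, which covered 16263 genes. Robo2 and Robo4 did not.

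RNA was sequenced from 3 samples of WT podocytes (line IMWT, genotype Col4a3+/+) and 3 samples of AS podocytes (line IMAS, made from Col4a3 knockout mice). Col4a3 is a chain of the type IV collagen of the glomerular basement membrane. Both lines derive from kidneys of male mice aged 8 weeks and carry the H-2Kb-tsA58 transgene, a temperature-sensitive large T antigen switched on by interferon gamma, and neither was treated. According to the sample records, cells were kept at 33 °C with 20 U/mL interferon gamma and then differentiated at 37 °C for 14 days, and the libraries took 15 cycles of PCR. The methods of the study describe another medium, less interferon gamma and a shorter differentiation. Each genotype was 1 cell line, so that genotype and line cannot be told apart. The samples of a line are numbered as sets without a statement on separate cultures, so that the p-values below measure only the spread between these samples, which may be technical.

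Expression is given as CPM, the counts of a gene per 1000000 counts of a library, whose size was adjusted by TMM, a normalization that assumes that most genes do not differ. The total count was between 45417221 and 54290968 per sample. A gene was called when edgeR's quasi-likelihood test gave an adjusted p under 0.05, and 40.1% of all genes tested were called, 20.4% as higher and 19.6% as lower in AS podocytes. Col4a3 was at 1087 ± 170 CPM in WT podocytes and 68.8 ± 12.2 CPM in AS podocytes (SD, n = 3 each). Of 12 podocyte markers, 9 were tested, and 6 of these were lower in AS podocytes. The summed CPM of all 12 ranged from 2147 to 2466 in WT and from 1697 to 1835 in AS samples, most of it Actn4, Synpo and Kirrel. The defining marker Tcf21 had no counts in any sample, while the transcription factor Wt1 was at 20.6 CPM in WT podocytes and 2.50 CPM in AS podocytes. Nphs1 (nephrin) was at 0.466 CPM in WT podocytes and 0.0407 CPM in AS podocytes. These low values rested on 73 counts over all samples, and AS set 3 held none. Other podocyte genes were plainly counted, among them Synpo (synaptopodin) at 803 CPM in WT podocytes and 526 CPM in AS podocytes. The cells are called podocytes by their label.

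Slit proteins are large secreted glycoproteins that bind the outermost domain of Robo receptors with heparan sulfate as a cofactor. First known for turning growing axons away from the midline, they act inside the cell through adaptor proteins, small GTPases and the GTPase-activating srGAP proteins, which reshape actin and membranes. In the kidney the pathway limits outgrowth of the ureteric bud, and in podocytes Robo2 is known as a receptor at the base of foot processes that joins nephrin through the adaptor Nck and restrains non-muscle myosin.

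Robo1, the widely expressed receptor of Slit ligands, was the member with the largest difference. The WT samples held 30.8, 35.5 and 34.2 CPM and the AS samples 1.80, 1.71 and 1.62 CPM. All 3 AS samples were far below all 3 WT samples. The samples of a line stayed close together, with an average of 33.5 ± 2.41 CPM in WT podocytes and 1.71 ± 0.0906 CPM in AS podocytes (SD, n = 3 each). Robo1 (ENSMUSG00000022883.12, chromosome 16) was 19.6-fold lower in AS podocytes (log2 fold change -4.29, standard error 0.10). The remaining level rested on 81, 88 and 89 counts in the AS samples against 1564, 1663 and 1576 counts in the WT samples, so that Robo1 RNA was reduced but still counted in every AS sample. Among all genes tested, 102 genes (0.627%) had a log2 fold change below that of Robo1. In bulk RNA, fewer cells that express a gene and less RNA per cell cannot be told apart.

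The tested genes around Robo1 differed far less than Robo1 itself. The median log2 fold change of the 476 genes tested on chromosome 16 was -0.07, and Robo1 was at -4.22 relative to it. The nearest tested genes on both sides of Robo1 were Gbe1, the glycogen branching enzyme, and Hspa13, a chaperone of the heat shock protein family. Robo2, which was not tested, lies between Robo1 and Hspa13. It had 8 counts over the WT samples and 0 over the AS samples. Gbe1 was at 14.8 CPM in WT podocytes and 11.9 CPM in AS podocytes (log2 fold change -0.32, standard error 0.09, adjusted p = 0.0232). Hspa13 was at 97.6 CPM in WT podocytes and 79.9 CPM in AS podocytes (log2 fold change -0.29, standard error 0.08, adjusted p = 0.0135). Both were lower in AS podocytes, and both calls were lost without AS set 2 (log2 fold change -0.27 for Gbe1 and -0.26 for Hspa13) and without AS set 3 (-0.31 and -0.24), and that of Gbe1 also without WT set 2 (-0.32) or WT set 3 (-0.29).

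The promoter of Robo1 is shown because Robo1 RNA differed most, beside that of Robo3, the receptor that moved the other way. Both were taken from RefSeq (GRCm38.p6, a build before the mm39 named in the submitters' processing notes) and run from 250 bases before to 50 bases after a gene start. They were searched on both strands for a TATA box (TATAAA), a GC box (GGGCGG), the TEAD motif (CATTCC), a cyclic AMP response element (TGACGTCA) and an E-box (CACGTG), with matches in capitals. The Robo1 window (chr16:72662899-72663198, plus strand) held none of these letters, and Robo1 has further annotated starts outside it.
Robo1 promoter: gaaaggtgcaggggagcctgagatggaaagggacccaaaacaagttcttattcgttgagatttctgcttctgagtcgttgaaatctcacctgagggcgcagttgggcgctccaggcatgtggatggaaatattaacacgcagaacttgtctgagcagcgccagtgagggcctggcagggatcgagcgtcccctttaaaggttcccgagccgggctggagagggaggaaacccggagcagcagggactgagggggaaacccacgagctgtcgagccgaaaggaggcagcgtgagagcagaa
Robo3 promoter: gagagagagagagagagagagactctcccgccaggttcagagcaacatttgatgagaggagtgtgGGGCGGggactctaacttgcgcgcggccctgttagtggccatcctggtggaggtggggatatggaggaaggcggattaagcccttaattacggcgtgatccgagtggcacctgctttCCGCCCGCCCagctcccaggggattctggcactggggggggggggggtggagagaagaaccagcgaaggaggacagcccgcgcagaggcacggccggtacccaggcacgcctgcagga
The Robo3 window (chr9:37433126-37433425, minus strand) held 3 GC boxes, of which a pair overlapped. Of 32851 RefSeq promoters, 35.7% held a GC box, 13.6% a TATA box, 14.7% the TEAD motif, 7.15% an E-box and 1.79% a cyclic AMP response element. Both windows were above the median, with 57% GC and 15 CpG dinucleotides in Robo1 and 63.3% GC and 17 CpG dinucleotides in Robo3, against medians of 52.7% and 7 over all promoters. Of all promoters, 67% held no more CpG dinucleotides than the Robo1 window and 70.3% no more than the Robo3 window. Neither DNA methylation nor factor binding was measured here.

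Robo2, the receptor described in podocytes, was almost absent from both lines. It had 2, 4 and 2 counts in the WT samples and no count in any AS sample. The 8 WT counts corresponded to 0.0557 CPM over the group, and a count of 0 over the 3 AS samples allows up to 0.0198 CPM (3 counts over the group, counting error only). This ceiling lay 2.81-fold below the WT value, which was itself near the limit of detection. The counting error of the 8 WT counts is not included, so 2.81 is not a lower bound on the fold change. Robo2 (ENSMUSG00000052516.21) lies on chromosome 16, as does Robo1.

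Robo3, which in mammals has lost Slit binding and instead responds to Nell2, was higher in AS podocytes. The WT samples held 3.02, 3.40 and 2.93 CPM and the AS samples 5.68, 5.23 and 6.94 CPM. The groups did not overlap, and set 3 was the highest of the AS samples. WT podocytes averaged 3.11 ± 0.250 CPM and AS podocytes 5.95 ± 0.885 CPM (SD, n = 3 each), 1.91-fold higher in AS (log2 fold change 0.94, standard error 0.16). Robo3 (ENSMUSG00000032128.16) lies on chromosome 9, where the median log2 fold change was 9.99e-05 over 901 genes.

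Robo4, the endothelial Robo receptor and neighbour of Robo3, was at the limit of detection. It had 1 count over the WT samples and 6 counts over the AS samples, all 6 of them in AS set 1. The ratio of AS to WT was 5.69 with an exact 95% counting interval of 0.69 to 262, so that no difference was detectable at this depth. Without AS set 1, no AS sample held a Robo4 count. Of 8 endothelial markers, 3 were tested. Their summed CPM over all 8 was 1.93 to 3.42 in WT and 1.75 to 1.93 in AS samples, and Tie1 had no counts. The VEGF receptor Kdr was called as lower, at 0.587 CPM in WT podocytes and 0.146 CPM in AS podocytes (log2 fold change -1.98, adjusted p = 0.0441), a call lost without WT set 2 (-1.54), WT set 3 (-1.96), AS set 1 (-1.84) or AS set 3 (-1.50), while the value was -3.00 without AS set 2.

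**Figure D1:**
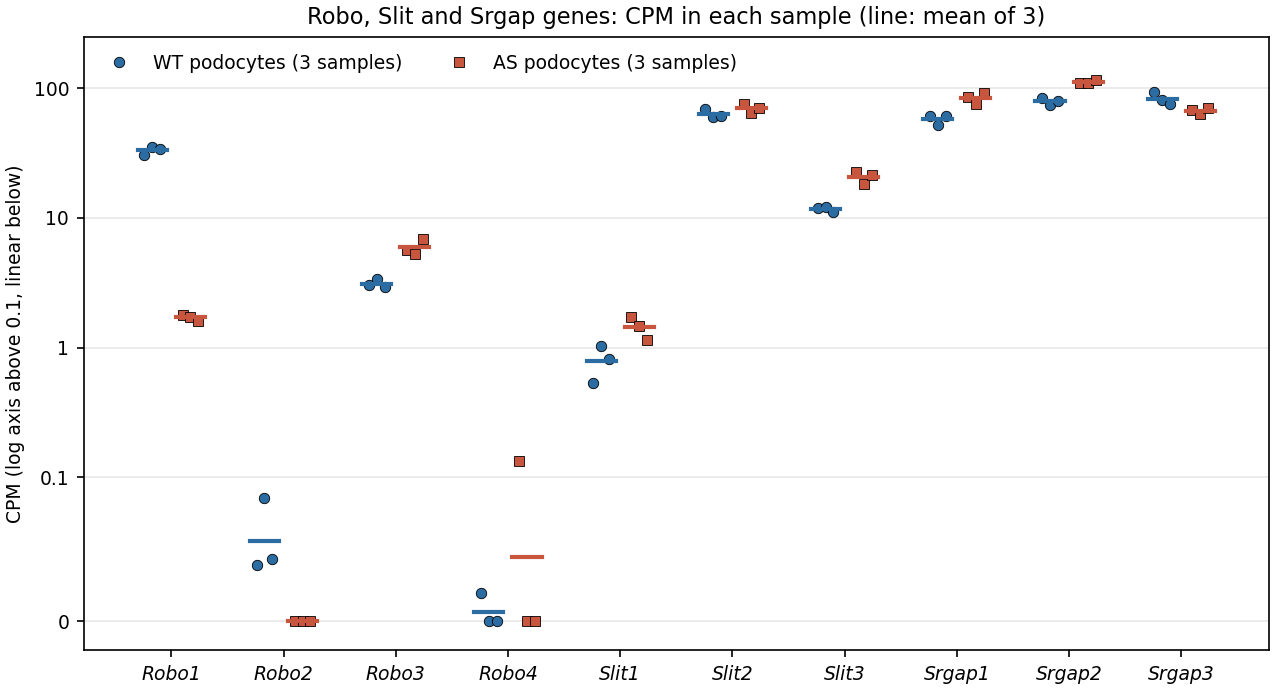
CPM of the 10 Robo, Slit and Srgap genes in each of the 3 WT samples (circles) and 3 AS samples (squares), with a line at the mean, on a log axis that is linear below 0.1 CPM. Robo1 lies above 30 CPM in the WT samples and below 2 CPM in the AS samples, Robo2 and Robo4 lay near 0, and the Slit2 samples of both lines overlapped.

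Among the ligands, Slit3, a Slit protein known from diaphragm and blood vessel development, had the largest difference relative to its standard error. The WT samples held 12.0, 12.1 and 11.1 CPM and the AS samples 22.5, 18.2 and 21.3 CPM. All AS samples were above all WT samples. WT podocytes averaged 11.7 ± 0.529 CPM and AS podocytes 20.7 ± 2.19 CPM (SD, n = 3 each), 1.76-fold higher in AS (log2 fold change 0.82, standard error 0.10). Slit3 (ENSMUSG00000056427.11) lies on chromosome 11, with a median log2 fold change of -0.03.

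Slit2, the ligand of Robo2 in the kidney, was the most abundant Slit gene by CPM and differed little. The WT samples held 68.7, 59.8 and 60.8 CPM and the AS samples 75.8, 64.1 and 70.3 CPM. The groups overlapped, since WT set 1 was above AS set 2. With an average of 63.1 ± 4.92 CPM in WT podocytes and 70.0 ± 5.86 CPM in AS podocytes (SD, n = 3 each), the log2 fold change was 0.15 (standard error 0.08) and Slit2 was not called. Without WT set 1 it was called at 0.22. Slit2 (ENSMUSG00000031558.16) lies on chromosome 5, where the median was 0.19, and relative to that median it was at -0.039.

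Slit1, a ligand best known from the nervous system, was low in both lines. The WT samples held 0.533, 1.03 and 0.824 CPM and the AS samples 1.71, 1.48 and 1.14 CPM. The groups did not overlap, although WT set 2 and AS set 3 were close. These values came from 27, 48 and 38 counts in WT and 77, 76 and 63 counts in AS samples. The log2 fold change was 0.86 (standard error 0.31), and the call was lost on leaving out any sample except WT set 2, with values of 0.64 without WT set 1, 0.89 without WT set 3, 0.72 without AS set 1, 0.84 without AS set 2 and 1.01 without AS set 3. Slit1 (ENSMUSG00000025020.12) lies on chromosome 19, where the median was 0.19. Of 6 neuronal markers, 2 were tested and neither was called, and Snap25 had no counts. Their summed CPM was 117 to 150 in WT and 132 to 139 in AS samples, nearly all of it the tubulin gene Tubb3.

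Slit2 and Slit3 each carry a hairpin of the microRNA miR-218 in an intron on the same strand, and this microRNA is known to pair with Robo1 RNA, which is why its sequence is shown. The seed, bases 2 to 8, is in capitals, followed by the seed matches (AAGCACA, in capitals) with their surroundings in the 3′ UTRs of Robo1, Robo2 and Srgap2, where the match is followed by an A. All were read from RefSeq (microRNA) or from GENCODE M21 transcripts (GRCm38, longest 3′ UTR of the gene).
mmu-miR-218-5p: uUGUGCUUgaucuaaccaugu
Robo1 3′ UTR bases 986 to 992: tttggttttaaAAGCACAatcactaaactt
Robo2 3′ UTR bases 461 to 467: tatttggtgatAAGCACAaatctctactcc
Srgap2 3′ UTR bases 2829 to 2835: ggaaaaatccaAAGCACAacttcaaaataa
In all, 1 match lay in the Robo1 3′ UTR (1733 bases), 2 in Robo2, 1 in Robo3, 2 in Slit2, 1 in Srgap2 and 1 in Srgap3, and none in Robo4, Slit1, Slit3 or Srgap1. Over 21020 mouse 3′ UTRs, 13.8% held a match, and among those of a length like that of Robo1 the share was 18.1%. For the other genes with a match it was 37.3% (Robo2), 2.84% (Robo3), 32.9% (Slit2), 38.2% (Srgap2) and 42.7% (Srgap3). For the genes without a match it was 18.2% (Robo4), 11.1% (Slit1), 3.14% (Slit3) and 39.9% (Srgap1). A match is a description of letters and not a measured target site. The Mir218-1 gene in Slit2 had 6 counts in WT and 1 count in AS samples, and Mir218-2 in Slit3 had none. Mature microRNAs were not measured in these mRNA libraries. Of the 6 genes with a match, Robo1 and Srgap3 were lower, Robo3 and Srgap2 were higher, Slit2 was not called and Robo2 was not tested.

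Among the srGAP genes, Srgap1 and Srgap2 were higher and Srgap3 was lower in AS podocytes. Srgap1, which acts on Cdc42 and RhoA behind Robo1, was at 61.7, 52.1 and 61.6 CPM in the samples of the WT line and at 86.0, 75.3 and 92.3 CPM in those of the AS line. Every AS sample was above every WT sample. WT podocytes averaged 58.5 ± 5.53 CPM and AS podocytes 84.5 ± 8.59 CPM (SD, n = 3 each), 1.45-fold higher in AS (log2 fold change 0.53, standard error 0.09). Srgap1 (ENSMUSG00000020121.16) lies on chromosome 10, where the median of 758 genes was 0.31. Relative to that median Srgap1 was at 0.23.

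Srgap2, which bends membranes outward into protrusions and acts on Rac1, was at 84.7, 74.6 and 80.0 CPM in the samples of the WT line and at 110, 109 and 116 CPM in those of the AS line. The groups were well apart. WT podocytes averaged 79.8 ± 5.05 CPM and AS podocytes 111 ± 3.78 CPM (SD, n = 3 each), 1.40-fold higher in AS (log2 fold change 0.48, standard error 0.06). Srgap2 (ENSMUSG00000026425.16) lies on chromosome 1, where the median was -0.02.

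Srgap3, also named WRP and known to act on Rac1, was lower in AS podocytes. The WT samples held 93.1, 80.9 and 75.9 CPM and the AS samples 67.7, 63.0 and 71.0 CPM. The groups did not overlap, but WT set 3 and AS set 3 were close. WT podocytes averaged 83.3 ± 8.83 CPM and AS podocytes 67.3 ± 4.03 CPM (SD, n = 3 each), 0.807 times the WT level (log2 fold change -0.31, standard error 0.08), and the call was lost without AS set 2, at -0.27. Srgap3 (ENSMUSG00000030257.17) lies on chromosome 6, where the median was -0.20, and relative to it the value was -0.11.

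**Figure D2:**
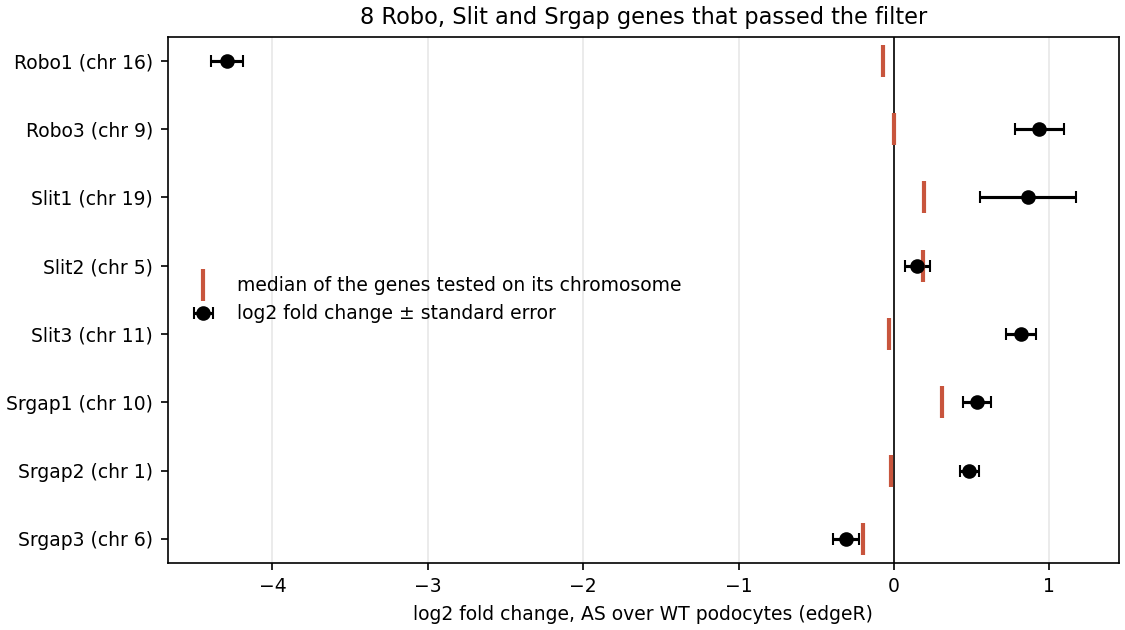
Log2 fold change of AS over WT podocytes (points, with the standard error as bars) for the 8 Robo, Slit and Srgap genes that passed the filter on low counts, with the median of the genes tested on the same chromosome as a red line. Robo1 stands at -4.29, whereas the other 7 genes lie between -0.31 and 0.94, and Slit2 lies near the median of its chromosome.

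Of the 8 genes tested, 7 were called, 5 as higher and 2 as lower in AS podocytes, and the samples of 7 genes did not overlap between the groups. Over all genes tested 40.1% were called and 52.3% did not overlap, and the 8 genes were chosen with this contrast known, so nothing is read from these counts. The median log2 fold change was 0.51 for the 8 genes and 0.53 without Robo1, against 0.0061 over all genes tested, of which the middle part from the 25th to the 75th percentile lay between -0.28 and 0.29. The 8 genes tested and the 2 at the limit of detection are spread over 8 chromosomes.

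To compare levels between genes, CPM was divided by the length of all exons of the gene in kilobases. In WT podocytes the order was Srgap3 (8.46 ± 0.896 CPM per kilobase), Srgap1 (6.40 ± 0.606), Srgap2 (6.35 ± 0.402), Slit2 (2.48 ± 0.194), Robo1 (2.03 ± 0.146), Slit3 (1.94 ± 0.0873), Robo3 (0.455 ± 0.0365) and Slit1 (0.134 ± 0.0419), with SD over 3 samples, and Robo2 and Robo4 were last. The samples of Srgap1 and Srgap2 overlapped, as did those of Robo1 and Slit3. In AS podocytes the order was Srgap1 (9.26 ± 0.940 CPM per kilobase), Srgap2 (8.88 ± 0.301), Srgap3 (6.83 ± 0.409), Slit3 (3.41 ± 0.362), Slit2 (2.75 ± 0.230), Robo3 (0.869 ± 0.129), Slit1 (0.244 ± 0.0480) and Robo1 (0.104 ± 0.00549). Srgap1 and Srgap2 again overlapped. Robo1 thus stood in 5th place in WT and in 8th place in AS podocytes, below Slit1. The order within a line depended in part on the length used. With the longest transcript in place of all exons, Slit2 stood above Slit3 in AS podocytes, and Srgap2 took the first place in both lines. It was then at 9.94 CPM per kilobase against 9.38 for Srgap3 in WT podocytes. In AS podocytes it was at 13.9 against 10.9 for Srgap1.

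The makeup of the receptor family differed between the lines. The fall of Robo1, on which the families were selected, enters these shares, and nothing further is read from them. Of the summed Robo CPM per kilobase, Robo1 held 80.7%, 81.1% and 82.8% in the samples of WT podocytes but 11.3%, 11.9% and 8.81% in those of AS podocytes. Robo3 held 19.0%, 18.7% and 17.1% in the former and 86.1%, 88.1% and 91.2% in the latter. The groups were far apart in both shares, and Robo3 took the first place in every AS sample. The sum over the family was 2.49 ± 0.169 CPM per kilobase in WT podocytes and 0.981 ± 0.123 CPM per kilobase in AS podocytes (SD, n = 3 each), so that the larger share of Robo3 stood in a smaller total. With the longest transcript as length, Robo1 held 87.5% in WT and 16.0% in AS podocytes.

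The Slit and Srgap families changed less in makeup. Slit2 held 54.5 ± 2.41% of the summed Slit CPM per kilobase in WT podocytes and 43.0 ± 0.531% in AS podocytes (SD, n = 3 each), whereas Slit3 held 42.6 ± 1.49% and 53.2 ± 1.14%. With the longest transcript as length, Slit2 remained ahead of Slit3 in both lines, at 72.6% in WT and 62.6% in AS podocytes. Srgap3 held 39.9 ± 2.47% of the summed Srgap level in WT podocytes and 27.4 ± 0.163% in AS podocytes (SD, n = 3 each). The sum of the Slit genes was 4.55 ± 0.201 CPM per kilobase in WT podocytes and 6.41 ± 0.602 in AS podocytes (SD, n = 3 each). The ratio of summed Slit to summed Robo RNA was 2.06, 1.70 and 1.75 in WT podocytes and 7.23, 6.65 and 5.82 in AS podocytes, on average 1.84 ± 0.193 and 6.57 ± 0.708 (SD, n = 3 each). All AS samples lay above all WT samples, with a higher summed Slit level and a lower summed Robo level in AS podocytes. The fall of Robo1, on which the families were selected, lowers the Robo sum and so raises this ratio. The separation of the groups is therefore given as a description only. With the longest transcript as length, the ratio averaged 1.73 in WT and 7.93 in AS podocytes. Most of the Robo sum in AS podocytes was Robo3, which has lost Slit binding, so the ratio is not one of ligand to Slit-binding receptor.

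**Figure D3:**
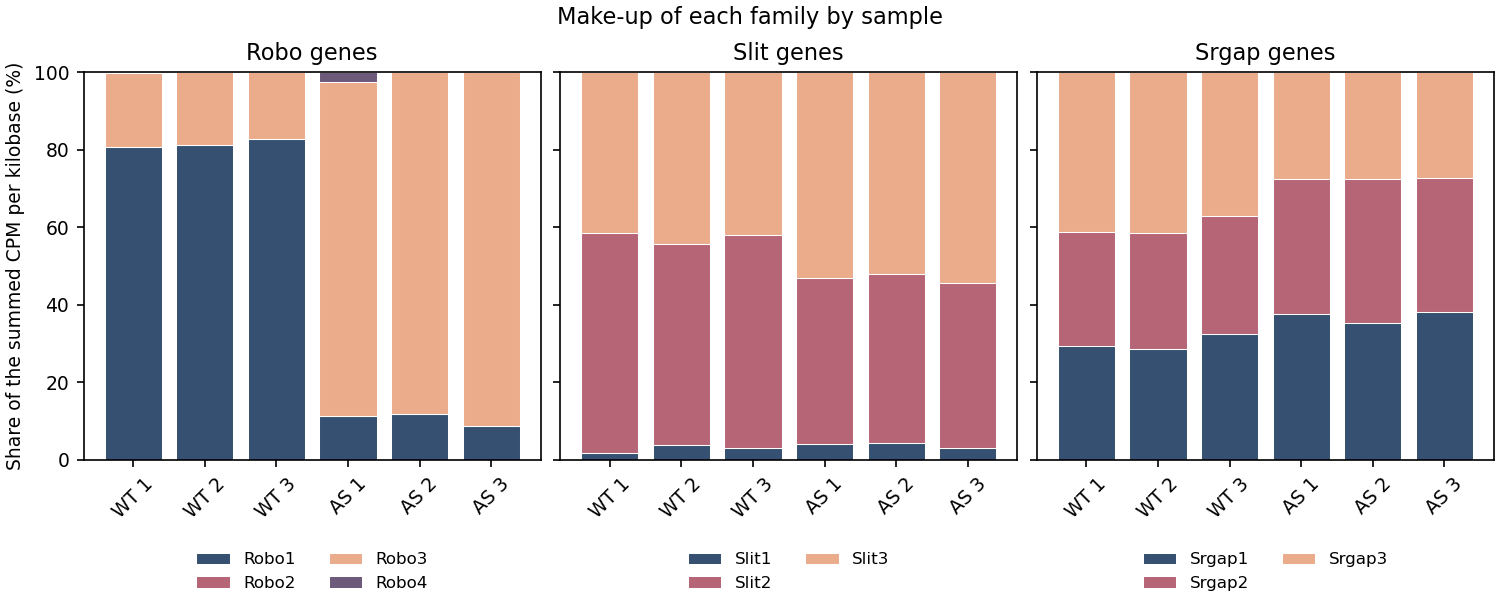
Share (in percent) that each gene held of the summed CPM per kilobase of its family in each sample, for the Robo, Slit and Srgap genes. Robo1 filled most of the Robo bar in the 3 WT samples and Robo3 in the 3 AS samples, whereas all 3 Srgap genes kept sizeable shares in both lines.

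The other genes of the pathway were read from 7 lists of 72 genes, chosen with earlier results of these data known. Of these, 70 were tested, and 39 (55.7%) were called, 18 as higher and 21 as lower, against 40.1% of all genes. Their median log2 fold change was -0.02. Of the 16 partners and co-receptors of Slit and Robo, AS podocytes had 10 at a higher and 4 at a lower level. Dcc, the netrin receptor that Robo1 silences in axons, rose from 0.903 to 10.4 CPM (log2 fold change 3.53, standard error 0.17, adjusted p = 6.13e-07). Flrt1, of a family of membrane proteins that bind Robo1, rose from 0.451 to 4.15 CPM (log2 fold change 3.19, standard error 0.23, adjusted p = 6.84e-06).

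The syndecans and Flrt proteins did not move together. The netrin receptor Unc5b rose from 98.4 to 188 CPM (log2 fold change 0.94, standard error 0.11, adjusted p = 0.000169), and the heparan sulfate proteoglycan Sdc2 (syndecan-2) rose from 357 to 650 CPM (log2 fold change 0.87, standard error 0.06, adjusted p = 5.25e-06). Nell2, the ligand of Robo3, rose from 0.381 to 1.15 CPM (log2 fold change 1.58, standard error 0.33, adjusted p = 0.00440), and its relative Nell1 from 0.200 to 0.637 CPM (log2 fold change 1.65, standard error 0.39, adjusted p = 0.00784). Both Nell genes were at low levels. Plxna1, a plexin that binds a Slit fragment, had the highest CPM of the list and rose from 724 to 875 (log2 fold change 0.27, standard error 0.07, adjusted p = 0.0148), a call that was lost without WT set 3 (0.26), AS set 1 (0.22) or AS set 3 (0.26).

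The 4 genes of this list that were lower were also receptors or matrix partners. Sdc4 (syndecan-4) fell from 316 to 179 CPM (log2 fold change -0.82, standard error 0.14, adjusted p = 0.00170) and Sdc3 (syndecan-3) from 331 to 239 CPM (log2 fold change -0.47, standard error 0.06, adjusted p = 0.000378), the opposite direction to Sdc2. Dag1 (dystroglycan), which binds Slit in the matrix, fell from 829 to 544 CPM (log2 fold change -0.61, standard error 0.12, adjusted p = 0.00306). Flrt2, a relative of Flrt1, fell from 80.9 to 60.1 CPM (log2 fold change -0.43, standard error 0.07, adjusted p = 0.00162). These 4 genes and both Nell genes were named after their values were seen.

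Heparan sulfate, the cofactor of Slit binding, is made and trimmed by the 11 enzymes of the second list, and AS podocytes had more RNA of 2 of these genes and less of 3, beside 20.4% of all genes called as higher and 19.6% as lower. Sulf1, which removes sulfate groups from finished chains outside the cell, fell from 320 to 12.3 CPM (log2 fold change -4.70, standard error 0.12, adjusted p = 1.07e-08). Its log2 fold change lay below that of Robo1. Sulf2, the second enzyme of this kind, rose from 323 to 500 CPM (log2 fold change 0.63, standard error 0.06, adjusted p = 5.87e-05). The chain-starting enzyme Extl3 fell by 0.49 on the log2 scale (standard error 0.07, adjusted p = 0.000477), and the sulfotransferase Hs6st2 rose by 0.38 (standard error 0.08, adjusted p = 0.00536). Ext1, the polymerase with the highest CPM of the list, was at 545 CPM in WT podocytes and 534 CPM in AS podocytes (log2 fold change -0.03, adjusted p = 0.767).

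Inside the cell, 14 adaptors and actin regulators link Robo to actin. Of these, 2 were higher, 2 were lower and 10 were not called, beside 40.1% called over all genes. Cables1, which links Robo to Abl kinase, rose from 1.64 to 3.16 CPM (log2 fold change 0.94, standard error 0.23, adjusted p = 0.0104). Pak3, a kinase downstream of Cdc42 and Rac, fell by 0.23 on the log2 scale (adjusted p = 0.00537), and Sos2, a Ras and Rac exchange factor, fell by 0.26 (adjusted p = 0.0113), a call lost without AS set 3 (-0.23). Nck2, the adaptor named above, rose by 0.22 (adjusted p = 0.0258), a call lost without WT set 2 (0.23), WT set 3 (0.19), AS set 1 (0.17) or AS set 2 (0.23). Pak2, the kinase with the highest CPM of this list, was not called (log2 fold change -0.13, adjusted p = 0.0743).

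Of the 9 small GTPases and GTPase-activating proteins tested, none was higher and 2 were lower, beside 20.4% of all genes called as higher and 19.6% as lower. Rhoc, a relative of RhoA, fell from 266 to 176 CPM (log2 fold change -0.60, standard error 0.06, adjusted p = 7.14e-05). Cdc42, a substrate of Srgap1, was at 454 CPM in WT podocytes and 406 CPM in AS podocytes (log2 fold change -0.16, standard error 0.06, adjusted p = 0.0448), a call lost on leaving out any sample except WT set 1, at values between -0.18 and -0.13. Rac2 had no counts.

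Among the 9 genes of non-muscle myosin and its control, which Slit and Robo2 restrain in podocytes, 2 were called as higher and 3 as lower, beside 20.4% and 19.6% of all genes. Myh14, the heavy chain of non-muscle myosin IIC, fell from 12.9 to 0.671 CPM (log2 fold change -4.25, standard error 0.22, adjusted p = 9.93e-07). Myh9, the heavy chain of myosin IIA and the gene with the highest CPM of the list, rose from 2846 to 3809 CPM (log2 fold change 0.42, standard error 0.08, adjusted p = 0.00349). The light chain Myl9 fell from 1111 to 550 CPM (log2 fold change -1.01, standard error 0.07, adjusted p = 7.51e-06). The kinase Rock2 fell by 0.23 on the log2 scale (adjusted p = 0.0155), a call lost without AS set 3 (-0.19). The myosin chains thus moved in both directions. The summed CPM of 7 mesangial or fibroblast markers was 5747 to 7899 in WT and 6416 to 7542 in AS samples, nearly all of it Acta2, and Lum had no counts. Among the others, the PDGF receptor Pdgfrb fell from 253 to 116 CPM (log2 fold change -1.12, adjusted p = 8.71e-07) and the proteoglycan Dcn rose from 0.538 to 2.35 CPM (log2 fold change 2.13, adjusted p = 0.00513).

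The next list held 8 genes that sort, cleave or degrade Robo receptors. In AS podocytes 6 were lower, 1 was higher and 1 was not called, beside 19.6% of all genes called as lower and 20.4% as higher, with a median log2 fold change of -0.31. Prrg4, the mammalian relative of the fly protein Commissureless that keeps Robo off the cell surface, was the 1 gene that rose, from 18.6 to 47.2 CPM (log2 fold change 1.35, standard error 0.09, adjusted p = 3.32e-06). Ndfip2 and Ndfip1, adaptors that bring Robo1 to ubiquitin ligases, fell by 0.46 (adjusted p = 0.000222) and by 0.32 (adjusted p = 0.00203) on the log2 scale. Psen2, of the gamma-secretase that cuts shed receptors, fell by 0.53 (adjusted p = 0.00114). The ligase Nedd4, the gene with the highest CPM of the list, was at 2006 CPM in WT podocytes and 1855 CPM in AS podocytes and was not called (log2 fold change -0.11, adjusted p = 0.189).

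Robo receptors also bind cadherin complexes. Of the 3 adhesion genes tested, Cdh2 (N-cadherin) rose from 540 to 773 CPM (log2 fold change 0.52, standard error 0.08, adjusted p = 0.000609), Ctnnb1 (beta-catenin) fell from 834 to 668 CPM (log2 fold change -0.32, standard error 0.06, adjusted p = 0.00207), and Cdh1 (E-cadherin) was not called.

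**Figure D4:**
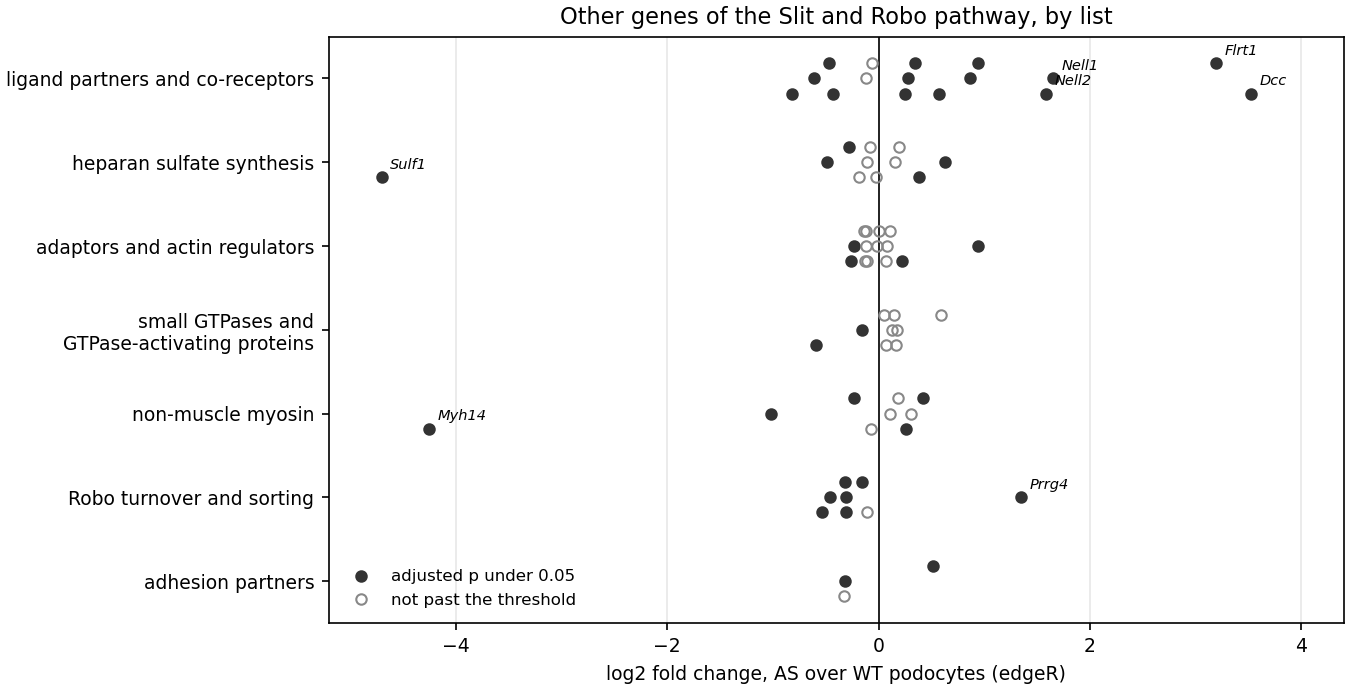
Log2 fold change of AS over WT podocytes for the other genes of the Slit and Robo pathway that were tested, by list, with filled points for genes called by edgeR (adjusted p under 0.05) and open points for the rest. Dcc and Flrt1 stand above 3, Sulf1 and Myh14 stand below -4, and most of the adaptors and small GTPases lie near 0.

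The genes whose profile was most like that of Robo1 were taken by the Euclidean distance between log2(CPM + 0.1) values, each centred on its mean, over the 6 samples. They were Gm11942, a processed pseudogene (distance 0.337), Fam84a (distance 0.381) and C1ra, which encodes the complement protease C1r (distance 0.403). Gm11942 was at 13.1 CPM in WT podocytes and 0.609 CPM in AS podocytes, Fam84a at 3.82 and 0.147 CPM, and C1ra at 28.1 and 1.33 CPM. They lie on chromosomes 4, 12 and 6, apart from Robo1. Reads of a processed pseudogene may come from its parent gene, so that the value of Gm11942 is uncertain.

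The nearest tested genes on both sides of the 10 members came to 16 genes that are no members themselves. Of these, 3 were higher, 4 were lower and 9 were not called, beside 40.1% called over all genes, with log2 fold changes between -0.98 and 1.13. Beside Robo3 and Robo4 lay Ccdc15, at -0.22 (adjusted p = 0.476), and Msantd2, at 0.36 (adjusted p = 0.0285), a call lost without WT set 2 (0.37), WT set 3 (0.35), AS set 2 (0.35) or AS set 3 (0.28).

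Markers of tubular cells and leukocytes were also summed. Of 8 tubular markers the summed CPM was 378 to 424 in WT and 281 to 392 in AS samples, with Umod and Aqp2 at 0 counts. Of the 4 tested, 1 was lower and 3 were not called. The lower one was the water channel Aqp1, which fell from 115 to 69.7 CPM (log2 fold change -0.72, adjusted p = 0.00432). Lrp2 made up most of the sum and was not called, at 274 CPM in WT podocytes and 255 CPM in AS podocytes. Of 6 leukocyte markers it was 11.2 to 15.0 in WT and 5.11 to 7.02 in AS samples, without overlap, with Cd3e and Adgre1 at 0 counts. Csf1r, the receptor of colony stimulating factor, made up most of this sum and fell from 10.3 to 3.82 CPM (log2 fold change -1.43, adjusted p = 9.40e-05), whereas Cd68 was not called, at 2.10 CPM in WT podocytes and 2.06 CPM in AS podocytes. The part of these markers in the differences of Robo1 and the other members was not tested.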

How the data were processed

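Whole-cell RNA was sequenced in 3 samples of each podocyte line. The authors deposited counts, the whole number of reads on each gene in each sample, without normalization, and every sample column was used. The submitters' processing notes name FastQC, Trim Galore, STAR, edgeR and the mm39 build. Not given in the sources used here are the counting tool, the annotation release and the strand setting. Of the 57132 Ensembl identifiers, 51880 matched GENCODE M21 (GRCm38) without the version and 35 with it, and genes without a name held 0.363% of the counts. M21 was used for names, gene order, exon length and 3′ UTRs. Of the 10 members, 9 matched a RefSeq promoter.

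The count analysis used edgeR 4.0.16 in R 4.3.3. Low genes were removed by filterByExpr at a minimum count of 10 and a minimum total of 15. Library sizes were scaled by TMM, and the quasi-likelihood test was run two-sided with genotype as the single term and with Benjamini-Hochberg adjustment over all genes tested. The standard error was approximated as the size of the log2 fold change over the square root of F. The fit was tested on simulated data. The members and lists were chosen with earlier results of these data known. Named were the members, up to 4 genes per list that passed with the lowest adjusted p and the gene with its highest mean CPM, the 3 genes most like Robo1, the genes beside the receptors, and markers at 0 counts. Other genes of these lists and markers were named after their values were seen.

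Some markers are not reported here. Total counts lay between 45417221 and 54290968. Intervals and limits cover counting error only, because PCR copies cannot be told from separate molecules in these libraries. With 3 samples against 3, an exact permutation test cannot go below 0.10, and single outlying samples were not tested for. The alternatives were DESeq2 size factors, unscaled library sizes, limma-voom (limma 3.58.1), DESeq2 1.42.0, all genes with a count, genes with a mean CPM of 1 or more, the set number as a replicate block, leaving out each sample, removing the median of each chromosome, and the longest transcript as gene length.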

Additional observations from a re-analysis of the deposited data

How the results depend on the processing

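The number of genes called lay between 5120 and 7066 over 13 alternatives (5120 to 6776 on leaving out 1 sample, 6517 as reported), that of members called between 5 and 7, and that of pathway genes called between 31 and 44 (39 as reported). The log2 fold change of Robo1 lay between -4.35 and -4.22 (-4.35 to -4.25 on leaving out 1 sample) and that of Robo3 between 0.81 and 1.01. Over the other 6 members tested, 68 of 78 values from another fit kept their direction and side of the threshold. Slit1 lost its call with DESeq2 size factors in edgeR (0.85), and Slit2 changed sign with the median of its chromosome removed (-0.039). The set numbers were checked for pairing. The deviations of same-numbered samples from their group means correlated at 0.147, 0.0939 and 0.0527, and those of other pairs at -0.130 to 0.0571. The same-numbered values were all positive but small, and they do not settle whether samples of the same number share an effect. The main fit left the samples unpaired, and the replicate block is the paired alternative. With a replicate block 7066 genes were called, Slit2 passed (0.15), and Slit1 did not (0.87). Of 646 values for 50 other named genes, 613 kept their direction and call, 30 lost the call, 1 gained it and 2 changed direction, both of Ext1 (0.0015 without WT set 1 and 0.016 without AS set 3, in a range of -0.089 to 0.016 on leaving out 1 sample). With the longest transcript as length, 6 of the 10 members kept their rank in AS podocytes and 7 in WT podocytes. The causes were not tested. Robo2 and Robo4 were too low for a fitted value, and depth limits what can be said of them.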
